A study of Mus musculus with 12 samples.

Results

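The genes described here are 35 mouse genes with exons known to be included differently in epithelial and mesenchymal cells, followed exon by exon in primary tumours of 4 mouse mammary carcinoma lines. They were found on an exon array by symbol, taking only probesets annotated to 1 of the 35 symbols alone and only genes with at least 4 such probesets. A probeset is a small group of array probes that reads a short stretch of a transcript, usually within an exon. Of the 35 genes, 33 had probesets, 978 in all and 6 to 120 per gene, out of 207232 single-gene probesets in 16185 genes. Epb41 and Sec31a had no probeset here, and Epb41l5 was matched through an older symbol. Exon-level tests were limited to genes with a level above that of the median gene. Of the genes, 29 with 822 probesets met the filters, out of 7139 genes with 106824 probesets. The 4 that did not are Magi1, Epb41l5, Ralgps2 and Ktn1, which are described apart.

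The series holds 12 arrays of total RNA, 3 each from tumours of 4T1, 4T07, 168FARN and 67NR. These lines come from a single mammary tumour of a BALB/c mouse, and 4T1 is known to spread to many organs, 4T07 to reach the lung without forming nodules, 168FARN to stop in lymph nodes and 67NR to stay in place. Female BALB/c mice, 3 months old, received the cells in a mammary fat pad, 13 mice for 4T1, 15 for 4T07, 11 for 168FARN and 8 for 67NR, and the tumours were removed at a mean size of 1 to 2 cm. Each kind of spread is represented by a single line without further treatment, so line and behaviour cannot be told apart, and a tumour is a mixture of the injected cells and the host's stroma, vessels and immune cells. No label says that the 3 samples of a line came from different animals, so p-values cover only a spread between samples that may be technical. In such tissue, fewer cells of a type and less RNA per cell cannot be told apart.

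In an epithelial-mesenchymal transition (EMT), cells give up their junctions and polarity and take on a motile, fibroblast-like form. Part of this change runs through alternative splicing. Epithelial cells contain the RNA-binding proteins Esrp1 and Esrp2, which promote or repress particular exons, while Rbfox2, Mbnl and Qk proteins act on many of the same exons. The targets are often proteins that shape the cell: actin regulators such as Enah, junction proteins such as Ctnnd1 and Scrib, and kinases such as Map3k7 and Slk. For most of these genes the known event is a change in a single exon, with the rest of the transcript kept.

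The arrays of a line were close to each other at the gene level, with Pearson correlations across genes of 0.979 to 0.989 within lines and 0.923 to 0.981 between lines, and no pair of arrays was identical. Olfactory receptor genes served as a scale of background: the 95th percentile was 5.98 for their probesets and 4.71 for the genes (log2). Epithelial markers, 14 of 16 measured, had a mean level of 8.74 to 8.98 on the 4T1 arrays, 7.91 to 9.14 on the 4T07 arrays, 6.48 to 6.55 on the 168FARN arrays and 5.84 to 6.29 on the 67NR arrays. Among them only the tight junction gene Ocln and the transcription factor gene Grhl2 had a line mean in the background range, both in 168FARN and Ocln also in 67NR. Skeletal muscle markers, 13 of 14 measured, stood at 8.32 and 9.23 on 168FARN arrays 2 and 3, at 5.91 on 168FARN array 1, and at 5.72 to 6.76 in the other 3 lines. The 168FARN arrays thus differed in muscle markers, the part of which in the results was not tested, and each probeset called by its relative level in the 29 tested genes is also given with 168FARN array 1 alone. In that fit the spread comes from the other 3 lines only, and the lone array is assumed to vary as they do.

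The relative level of a probeset is its log2 signal minus the median of the tested probesets of its gene on the same array. A change that all probesets of a gene share thus drops out, and a change of an exon remains. A probeset whose signal stays flat while its gene changes also gets a relative change, so a relative change alone does not show a change of an exon. Among the 4 lines, few probesets of these genes moved against their gene. A probeset was called when limma's moderated F-test gave an adjusted p under 0.05 over all tested probesets and its 4 line means spanned at least 1 on the log2 scale. This held for 3 of 822 probesets, 0.365%, against 0.891% of all tested probesets: 1 each in Enah, Dst and Map3k7. The median range over the lines was 0.26 for these genes' probesets and 0.27 for all tested probesets. A range of at least 1 was reached by 20 probesets in 9 of the 29 genes, 2.43% of their probesets, against 2.56% of all. At an unadjusted p under 0.05 there were 105 probesets, 12.8% against 12.1% of all. These shares lie near or below those of the array as a whole. Without 168FARN array 1, 4T1 array 1 or 4T1 array 2, the number called among the lines was 1.

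**Figure D1:**
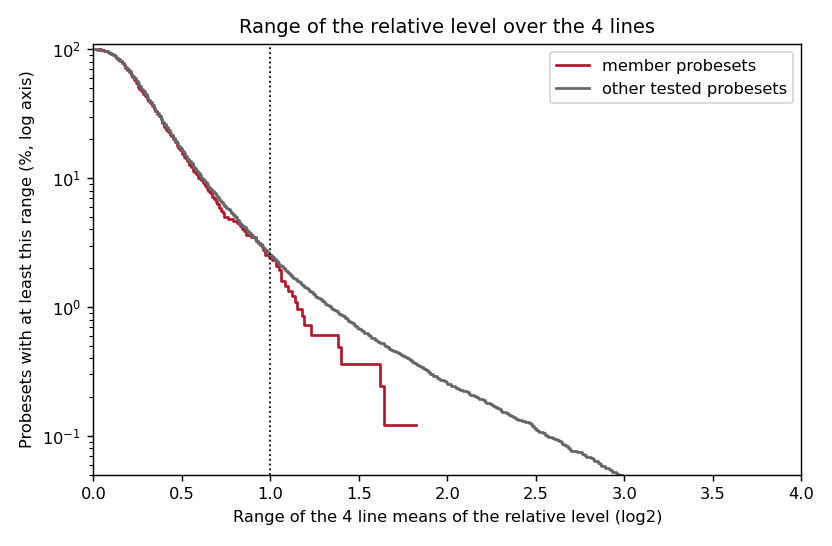
Share of probesets (vertical axis, percent, log scale) whose 4 line means of the relative level span at least the value on the horizontal axis (log2), for the 822 tested probesets of the EMT-exon genes (red) and all other tested probesets (grey). The curves run together up to the dotted line at 1, where they stand at 2.43% for these genes and near 2.56% for the array, and the red curve ends at 1.82.

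Between single lines, most calls were in 4T1 against 168FARN, where 6 probesets in 5 genes passed. Of all tested probesets 0.623% passed. In 4T1, 4 of the 6 were higher (0.342% of all) and 2 lower (0.281% of all). In 168FARN against 67NR there was 1 call (0.331% of all), lower in 168FARN (0.184% of all). No probeset of these genes was called in 4T1 against 67NR (0.425% of all), 4T07 against 67NR (0.416%), 4T07 against 168FARN (0.342%) or 4T1 against 4T07 (0.00936%). None was called either between the mean of the lung-reaching lines 4T1 and 4T07 and the mean of 168FARN and 67NR (0.371%). At an unadjusted limma p under 0.05 these 5 comparisons had 71, 79, 75, 42 and 104 probesets, and limma's diffSplice, which sets each probeset against the others of its gene, called 4, 1, 1, 0 and 1 of them (0.649%, 0.602%, 0.689%, 0.142% and 0.469% of all). In 168FARN against 67NR diffSplice called 4 (0.691% of all). Over all 6 pairs, the 6 probesets make 0.73% of those tested, against 1.13% of all. The 6 calls in 4T1 against 168FARN became 1 without 4T1 array 2, 2 without 4T1 array 1 or 168FARN array 2, and 3 without 168FARN array 1, 168FARN array 3, 67NR array 2 or 4T07 array 2. The 1 call in 168FARN against 67NR, of an Enah probeset, was kept without 67NR array 1 or 4T1 array 3, with 2 and 3 probesets called, and it was lost without any of the other 10 arrays, with 1 probeset called without 168FARN array 2 or 168FARN array 3 and 0 without the rest.

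**Figure D2:**
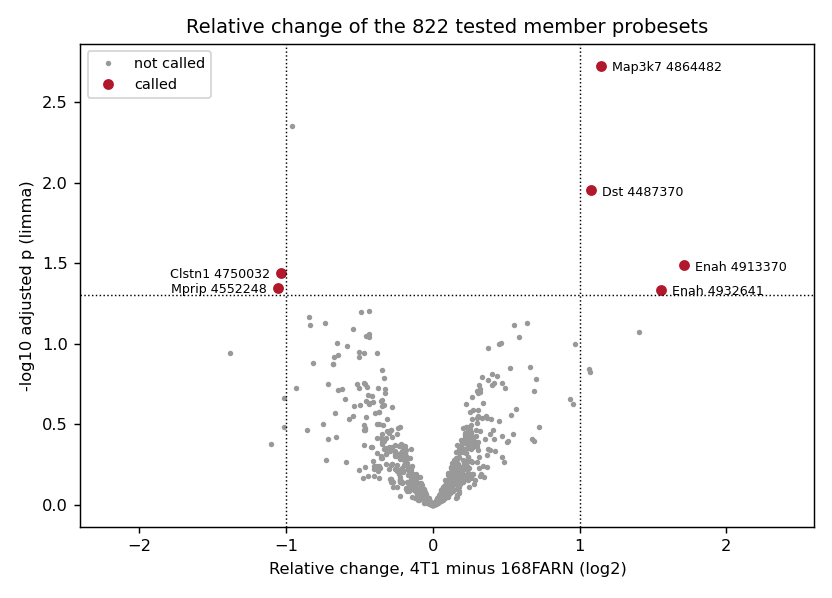
Relative change in 4T1 minus 168FARN (horizontal axis, log2) and the -log10 of limma's adjusted p (vertical axis) of the 822 tested probesets. Dotted lines mark the thresholds; the 6 called probesets (red) are those of Map3k7, Dst and Enah, higher in 4T1, and of Clstn1 and Mprip, lower in 4T1.

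The cytoskeleton was the best represented role, with 375 tested probesets in 11 genes, of which 2 were called among the lines and 4 in a pair of lines. Enah (Mena) extends actin filaments at the leading edge, and its epithelial exon is among the best known EMT splicing events. Its probeset 4913370 had relative levels of -0.52, -0.37 and 0.43 on the 4T1 arrays, -0.85, -1.12 and -0.80 on the 4T07 arrays, -1.68, -2.42 and -1.50 on the 168FARN arrays, and -0.68, 0.15 and 0.40 on the 67NR arrays. The 168FARN arrays lay below all others, and 4T1 and 67NR overlapped. The means were -0.15 ± 0.51 in 4T1, -0.92 ± 0.17 in 4T07, -1.87 ± 0.49 in 168FARN and -0.04 ± 0.56 in 67NR (SD, n = 3 each), a range of 1.82 with an adjusted p of 0.0451. The probeset was lower relative to its gene in 168FARN than in 67NR by a log2 change of -1.82 (SE 0.33, adjusted p = 0.037) and higher in 4T1 than in 168FARN by 1.71 (adjusted p = 0.0326).

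In its own level this probeset differed little while most of the gene moved. The signal of probeset 4913370 averaged 7.57 in 4T1, 7.54 in 4T07, 7.20 in 168FARN and 7.41 in 67NR, while the level of the gene was 7.39 ± 0.31, 8.05 ± 0.22, 8.75 ± 0.16 and 7.19 ± 0.25 in the same lines (SD, n = 3). Of the 24 tested Enah probesets, 19 were higher in 168FARN than in 67NR by at least 1 in their own level, with a median over all 24 of 1.75. The other 5, probesets 4902567, 4399381, 4913370, 4932641 and 5021639, differed by less than 0.5, from -0.21 to 0.48. Their mean levels over all arrays ran from 5.93 to 9.58, so that only 4902567 lay in the background range of 5.98 or less.

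**Figure D3:**
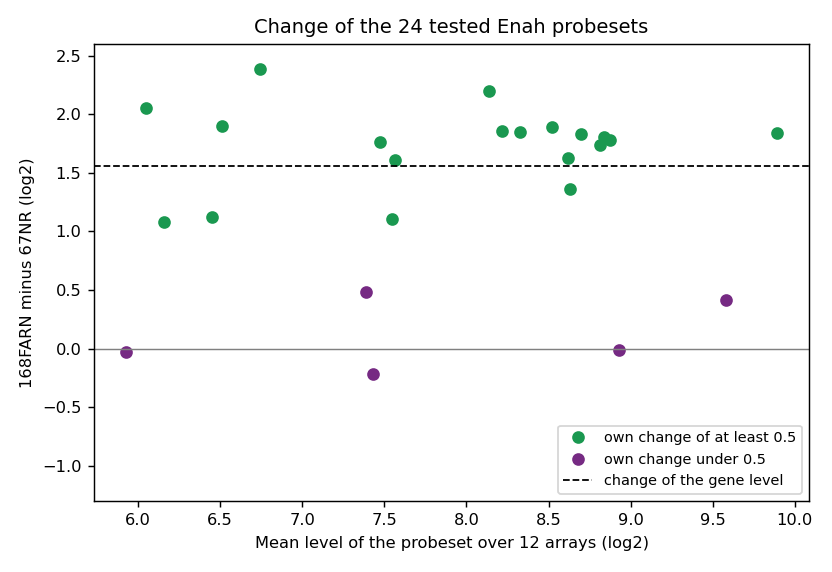
Change of each of the 24 tested Enah probesets in its own level, 168FARN minus 67NR (vertical axis, log2), against its mean level over the 12 arrays (horizontal axis, log2). The 5 purple probesets changed by less than 0.5 while 19 green ones changed by at least 1; the dashed line is the change of the gene level, 1.56.

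A second Enah probeset, 4932641, had the same form at a higher level. Its own level averaged 9.05 in 4T1, 8.98 in 4T07, 8.83 in 168FARN and 8.85 in 67NR. Its relative level was 1.19, 0.87 and 1.91 in 4T1, 0.73, 0.41 and 0.42 in 4T07, -0.57, -0.15 and 0.04 in 168FARN, and 0.78, 1.33 and 2.06 in 67NR. All 168FARN arrays again lay below all others. It was called in 4T1 against 168FARN, with a relative change of 1.55 (adjusted p = 0.0462), but neither in 168FARN against 67NR (-1.62, adjusted p = 0.0596) nor among the 4 lines (adjusted p = 0.0702). Of the 12 fits that leave out an array, only that without 67NR array 1 kept the call of 4913370 among the lines (adjusted p = 0.0286, up to 0.121 in the others). In 4T1 against 168FARN the adjusted p of 4913370 was under 0.05 in 5 of the 12 (up to 0.107 in the others). That of 4932641 was under 0.05 in 2 of the 12 (up to 0.144 in the others). With 168FARN array 1 alone, the range of 4913370 was 1.64 (adjusted p = 0.322) and the change of 4932641 in 4T1 against 168FARN was 1.89 (adjusted p = 0.236), so that the sizes stayed above 1 while the calls were lost.

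Dst, a spectraplakin that ties the actin and intermediate filament networks to junctions and microtubules, gave the third call among the lines from 118 tested probesets. Probeset 4487370 had relative levels of -1.92, -1.71 and -1.85 in 4T1, -2.32, -2.55 and -1.97 in 4T07, -2.89, -3.10 and -2.72 in 168FARN, and -2.34, -2.10 and -2.52 in 67NR. The 4T1 arrays were the highest and the 168FARN arrays the lowest, with 4T07 and 67NR overlapping between them. The range was 1.08 (adjusted p = 0.0354), and 4T1 exceeded 168FARN by 1.08 (adjusted p = 0.0111). Here the probeset itself moved: its own level averaged 7.73 in 4T1, 7.18 in 4T07, 6.51 in 168FARN and 7.41 in 67NR, while the gene level stayed within 0.33 (9.55, 9.43, 9.37 and 9.70, adjusted p = 0.163). The change between 4T1 and 168FARN had an adjusted p under 0.05 in 11 of 12 fits that leave out an array (0.0507 without 4T1 array 2). With 168FARN array 1 alone it was 1.07 (adjusted p = 0.165). Among the 4 lines it was under 0.05 in 4 of the 12, without 67NR array 2, 67NR array 3, 4T07 array 2 or 4T07 array 3, and up to 0.116 in the others. That call was also lost with the replicate number as a block (adjusted p = 0.0724) and without the filter on probesets (1.04, adjusted p = 0.0548).

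Mprip, which targets myosin phosphatase to actin stress fibres, held 1 called probeset and 1 just under the size threshold. Probeset 4552248 had relative levels of -1.92, -1.94 and -1.18 in 4T1, -1.48, -1.49 and -1.76 in 4T07, -0.44, -0.64 and -0.81 in 168FARN, and -1.38, -1.85 and -1.25 in 67NR. All 168FARN arrays lay above all others, and the other 3 lines overlapped. It was lower in 4T1 than in 168FARN by a log2 change of -1.05 (SE 0.22, adjusted p = 0.045). The diffSplice change was -0.94 (diffSplice adjusted p = 2.79e-05), short of the size threshold, so diffSplice did not call it. The adjusted p of the relative change was under 0.05 in 2 of 12 fits without an array (67NR array 2 or 4T1 array 3), and up to 0.171 in the others. With 168FARN array 1 alone the change was -1.24 (adjusted p = 0.26). Probeset 5177395 was the only further one with an adjusted p under 0.05 among the lines (0.0129) and a range of 0.96. Its mean relative level was 0.29 ± 0.06 in 4T1, 0.82 ± 0.22 in 4T07, 1.25 ± 0.10 in 168FARN and 0.69 ± 0.10 in 67NR (SD, n = 3). Here 168FARN was at the top and 4T1 at the bottom, the ends that were reversed in the Dst probeset. The means of 4T07 and 67NR lay between these ends in both probesets.

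Map3k7 (TAK1), a kinase that passes on TGF-beta and inflammatory signals, held the probeset with the smallest adjusted p among the lines. Its probeset 4864482 had relative levels of -0.24, -0.04 and -0.03 on the 4T1 arrays, -0.46, -0.34 and 0.00 on the 4T07 arrays, -1.36, -1.22 and -1.18 on the 168FARN arrays, and -0.63, -0.67 and -0.54 on the 67NR arrays. The 168FARN arrays were the lowest, those of 67NR came next, and those of 4T1 and 4T07 overlapped above them. The means were -0.10 ± 0.12 in 4T1, -0.26 ± 0.24 in 4T07, -1.25 ± 0.09 in 168FARN and -0.61 ± 0.06 in 67NR (SD, n = 3 each), with a range of 1.14 and an adjusted p of 0.00342. The level of the gene did not pass a test among the lines (9.14, 8.98, 8.99 and 9.13, adjusted p = 0.674), while the own level of the probeset averaged 9.09, 8.82, 7.84 and 8.55 in the order 4T1, 4T07, 168FARN and 67NR.

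The probeset was higher in 4T1 than in 168FARN by 1.14 (SE 0.13, adjusted p = 0.00188). Against 168FARN, 4T07 was higher by 0.98 (adjusted p = 0.00659), just short of the size threshold. The contrast of 168FARN with 67NR was -0.63 (adjusted p = 0.0576) and that of 4T1 with 67NR was 0.51 (adjusted p = 0.153). The mean of 4T1 and 4T07 exceeded that of 168FARN and 67NR by 0.75 (adjusted p = 0.00186). The change between 4T1 and 168FARN passed in 12 of 12 fits without an array, where it ran from 1.09 to 1.21. With 168FARN array 1 alone it was 1.25 (adjusted p = 0.0463), when it was the 1 call in that comparison, and among the 4 lines the adjusted p was 0.0657.

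Clstn1 (calsyntenin), a cargo adaptor for kinesin in the secretory pathway, held the remaining call. Probeset 4750032 had relative levels of -1.13, -1.33 and -1.12 in 4T1, -0.26, -0.56 and -1.18 in 4T07, -0.02, -0.04 and -0.42 in 168FARN, and -0.17, -0.08 and -0.29 in 67NR. The 4T1 arrays lay below all those of 168FARN and 67NR, and a single 4T07 array lay with 4T1. The relative change was -1.03 in 4T1 against 168FARN (adjusted p = 0.0362), -1.01 in 4T1 against 67NR (adjusted p = 0.0588) and -0.76 for the mean of 4T1 and 4T07 against that of 168FARN and 67NR (adjusted p = 0.0291). The own level of the probeset was 8.73 in 4T1, 9.17 in 4T07, 9.67 in 168FARN and 10.20 in 67NR, against gene levels of 9.92, 9.84, 9.83 and 10.38. In 4T1 against 168FARN its adjusted p was under 0.05 in 3 of 12 fits without an array (67NR array 3, 4T07 array 1 or 4T07 array 3), and up to 0.119 in the others. With 168FARN array 1 alone the change was -1.17 (adjusted p = 0.227).

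**Figure D4:**
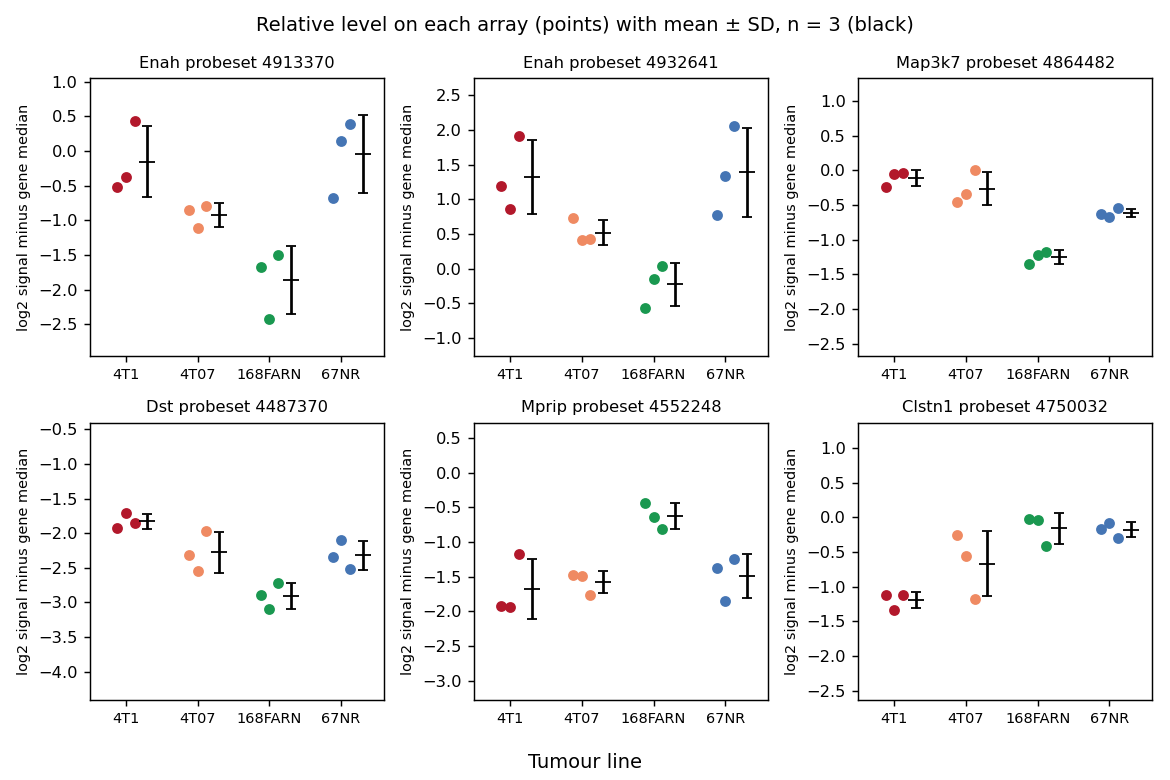
Relative level (log2 signal minus the median of the gene's tested probesets, vertical axis) on each of the 12 arrays for the 6 called probesets, by tumour line (horizontal axis), with mean ± SD of 3 arrays in black. Every panel spans 4 log2 units; the 168FARN arrays are the lowest in both Enah panels, Map3k7 and Dst and the highest in Mprip, and the 4T1 arrays are the lowest in Clstn1 apart from a single 4T07 array.

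The diffSplice test, which draws its spread from all probesets of a gene rather than from the single probeset, called 16 probesets in 9 genes in at least 1 pair, 1.95% of those tested against 2.11% of all. Both tests called 5 of these. In 4T1 against 168FARN diffSplice called 11 probesets (1.15% of all). The largest beyond those above was Dst probeset 4410457, lower in 4T1 relative to its gene by -1.40. Macf1 probeset 5240384 was higher by 1.37, and Enah probeset 5422318 was lower by -1.36, against the direction of Enah probesets 4913370 and 4932641. Their mean levels were 5.67, 6.34 and 6.74, so that in the mean over all arrays the Dst probeset lay in the background range of 5.98 or less. The Macf1 probeset lay in that range in 168FARN, at 5.39, and the Enah probeset in 4T1 and 67NR, at 5.78 and 5.84. Macf1 probeset 4812995, with a mean level of 6.59, was lower in 4T1 by -1.07, against the direction of Macf1 probeset 5240384. Macf1 is the relative of Dst that links actin to microtubules. In Plod2, an enzyme that hydroxylates collagen lysines, probeset 4681193 was higher in 4T1 relative to its gene by 1.03. Its own level was 8.63 in 4T1 and 8.79 in 168FARN, while the gene level was 10.01 and 11.18, so that the probeset differed little while the gene moved. In Fnip1, a partner of folliculin, probeset 5126332 was lower in 4T1 relative to its gene by -1.02. In 4T1 against 67NR diffSplice called Clstn1 probeset 4750032 at -1.15, Slk probeset 4324231 at 1.10, Scrib probeset 5274459 at 1.03 and Dst probeset 4820154 at 1.00. The Slk probeset had an own level of 6.80 in 4T1 and 5.75 in 67NR, where it lay in the background range. The Dst probeset lay in that range in every line, at 5.98 in 4T1, 5.91 in 4T07, 5.66 in 168FARN and 5.13 in 67NR.

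Junction and polarity genes, 200 tested probesets in 7 genes, had no call by the relative level, either among the lines or in a pair. Scrib, a polarity scaffold of the lateral membrane, came nearest. Its probeset 5274459 stood at 0.07, 0.01 and 0.13 in 4T1, 0.16, -0.59 and -0.55 in 4T07, -0.65, -0.34 and -0.39 in 168FARN, and -0.59, -1.26 and -1.10 in 67NR. The 4T1 arrays lay above those of 168FARN and 67NR, with a relative change of 1.06 against 67NR and an adjusted p of 0.0607. Ctnnd1 (p120 catenin), which holds cadherins at the membrane and is a classical EMT splicing target, had 3 probesets with a range of at least 1, and all 3 averaged 6.09 to 6.25, close to background. Probeset 5168521 stood at -3.72, -3.55 and -3.43 in 4T1, -3.42, -3.11 and -3.09 in 4T07, -2.42, -3.89 and -2.42 in 168FARN, and -4.07, -3.82 and -4.39 in 67NR. Arrays 1 and 3 of 168FARN were the highest and array 2 lay among those of 67NR, and the range of 1.18 did not pass (adjusted p = 0.302). Without 168FARN array 2 the range was 1.67 with an adjusted p of 0.00658, and with 168FARN array 1 alone it was 1.67 with an adjusted p of 0.0459.

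The other genes had no call by the relative level, although diffSplice called probesets of Macf1, Fnip1, Slk and Plod2. In the cytoskeletal group the most variable probeset spanned 0.28 in Abi1, a WAVE complex subunit, 0.40 and 0.69 in the alpha-actinin genes Actn1 and Actn4, 0.43 in Palm, 0.53 in Tpm1, 0.54 in Cald1, 0.73 in Cttn and 1.40 in Macf1. Among junction genes it spanned 0.59 in Dlg1, a partner of Scrib, 0.59 in Numb, an endocytic adaptor and Notch inhibitor, 0.76 in Nf2 (merlin), 0.89 in Arhgap17 and 0.92 in Arhgef11. Kinases, receptors and transcription factors gave 0.54 in Insr, the insulin receptor, 0.66 in Bcl2l1, whose long and short forms protect from or promote cell death, 0.72 in Lrrfip2, 0.93 in Fnip1, 0.94 in Tcf7l2, a Wnt pathway factor, and 1.03 in Slk. In the secretory and organelle group it was 0.63 in Osbpl3, 0.86 in Kif13a, a kinesin, and 0.97 in Plod2. Numb, Insr, Dlg1, Tpm1 and Cald1, all with well known switching exons, had no probeset whose line means spanned 1 relative to the gene. No probeset was placed on an exon, so it is not known whether any of those tested reads a switching exon.

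In the 4 genes too low for the exon-level test, relative levels rest on weak signals, and their values come from a fit without the filter on gene level that was added after seeing the data. In that fit 4 of their 105 probesets were called, 3.81%, against 1.83% of all probesets in it. The 1.83% covers genes of every level, and in the main fit, of genes above the filter, it was 0.891%. The share among genes as low as these was not computed, so no excess can be read from the 3.81%. These 4 genes were not fitted with 168FARN array 1 alone. Epb41l5, a FERM-domain protein needed in mouse embryos for the EMT of gastrulation, had probeset 4565854 at 0.69, 1.14 and 0.36 in 4T1, 0.51, 0.35 and -0.20 in 4T07, 1.63, 1.79 and 1.62 in 168FARN, and 0.78, 1.17 and 0.54 in 67NR, with 168FARN above all others. Its range was 1.46 (adjusted p = 0.032), and its own level reached 9.23 in 168FARN, against 7.11 in 67NR. Ktn1 (kinectin), a kinesin-binding protein of the endoplasmic reticulum, had probeset 4829492 lowest in 4T07, at -1.68, -1.74 and -2.34, against -0.92, -0.84 and -0.46 in 4T1, -0.54, -0.46 and -0.66 in 168FARN and -0.99, -1.22 and -1.32 in 67NR.

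The Ktn1 probeset had a range of 1.37 (adjusted p = 0.00893), with an own level of 6.53 in 4T1, 5.97 in 4T07, 6.64 in 168FARN and 6.03 in 67NR. In 4T07 it thus lay in the background range. Ralgps2, an exchange factor for Ral GTPases, had 2 called probesets, 4742627 with a range of 1.43 (adjusted p = 0.0224) and 4362069 with 1.39 (adjusted p = 0.0499). Both were higher relative to the gene in 168FARN and 67NR than in 4T1 and 4T07. In the order 4T1, 4T07, 168FARN and 67NR, the gene level averaged 6.93, 7.24, 5.18 and 5.41. The own level of 4742627 averaged 7.33, 7.87, 6.94 and 6.71 in that order, and that of 4362069 averaged 7.76, 7.50, 6.87 and 7.08. In their own level both probesets were thus lower in 168FARN and 67NR, and fell less than the gene. Magi1, a tight junction scaffold, had 27 probesets above the filter, none with a range of at least 1 and the widest at 0.81.

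Many of the genes differed between the lines as a whole. At the gene level (the median of all probesets of a gene), 6 of 33 had an adjusted p under 0.05 and a range of at least 1, which is 18.2%, against 20.9% of the 14345 genes tested. By adjusted p alone there were 19, or 57.6%, against 43.7% of all, and the median range was 0.55, against 0.56 for all genes. The widest was Ralgps2, at 7.12, 6.54 and 7.13 in 4T1, 6.75, 7.42 and 7.55 in 4T07, 5.71, 4.79 and 5.03 in 168FARN, and 5.80, 5.25 and 5.19 in 67NR. Its arrays of 4T1 and 4T07 lay above all those of the other lines (4T07 against 168FARN 2.06, SE 0.28, adjusted p = 9.6e-05).

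Enah followed, highest in 168FARN by 1.56 over 67NR (SE 0.19, adjusted p = 5.9e-05), with 4T07 between 168FARN and the other lines. Plod2 had the same order of line means: 10.09, 10.12 and 9.81 in 4T1, 10.52, 10.51 and 10.46 in 4T07, 11.21, 11.22 and 11.11 in 168FARN, and 9.99, 9.95 and 9.80 in 67NR. The 168FARN arrays stood above all others and 4T07 above 4T1 and 67NR, which overlapped (168FARN against 67NR 1.27, SE 0.13, adjusted p = 1.5e-05). Fibroblast markers, 9 of 10 measured, had a mean level of 9.21 to 9.48 in 4T1, 9.46 to 9.90 in 4T07, 10.25 to 10.49 in 168FARN and 8.55 to 9.11 in 67NR. Single markers did not all follow that mean: 6 of the 9 were higher in 168FARN than in 67NR and none lower, while in 4T1 against 168FARN 5 were lower and 3 higher. The 3 higher were Col1a1 (11.64 in 4T1 and 10.34 in 168FARN), Col1a2 (11.08 and 9.37) and Thy1 (10.05 and 8.47). The part of these markers in the results was not tested. Epb41l5 averaged 6.88 ± 0.12 in 4T1, 6.31 ± 0.44 in 4T07, 7.26 ± 0.21 in 168FARN and 5.86 ± 0.04 in 67NR (SD, n = 3), with 67NR below all other arrays. Osbpl3, an oxysterol-binding protein relative, averaged 8.67 ± 0.14, 8.39 ± 0.47, 9.39 ± 0.05 and 8.98 ± 0.22 in the same order, highest in 168FARN.

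Ctnnd1 went the other way, with 10.05, 9.99 and 9.87 in 4T1, 9.63, 9.64 and 10.21 in 4T07, 9.17, 8.47 and 9.02 in 168FARN, and 9.74, 9.78 and 9.94 in 67NR. All 168FARN arrays lay below all others, by 1.09 against 4T1 (SE 0.20, adjusted p = 0.00093 for 4T1 against 168FARN). The mean of the epithelial markers was also low in 168FARN and lowest in 67NR, but single markers differed. Krt8 stood at 11.44 in 168FARN and 6.60 in 67NR, and Grhl2 at 4.19 and 6.05. Of the 14 markers, 2 were higher and 1 lower in 168FARN than in 67NR. Ctnnd1 stood at 9.82 ± 0.11 in 67NR and 9.97 ± 0.09 in 4T1. The part of these markers in the Ctnnd1 level was not tested. Leaving out any 1 array, or keeping 168FARN array 1 alone, left all 6 of these gene-level changes with an adjusted p under 0.05. With 168FARN array 1 alone the change of Ctnnd1 was 0.80 (adjusted p = 0.0436).

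**Figure D5:**
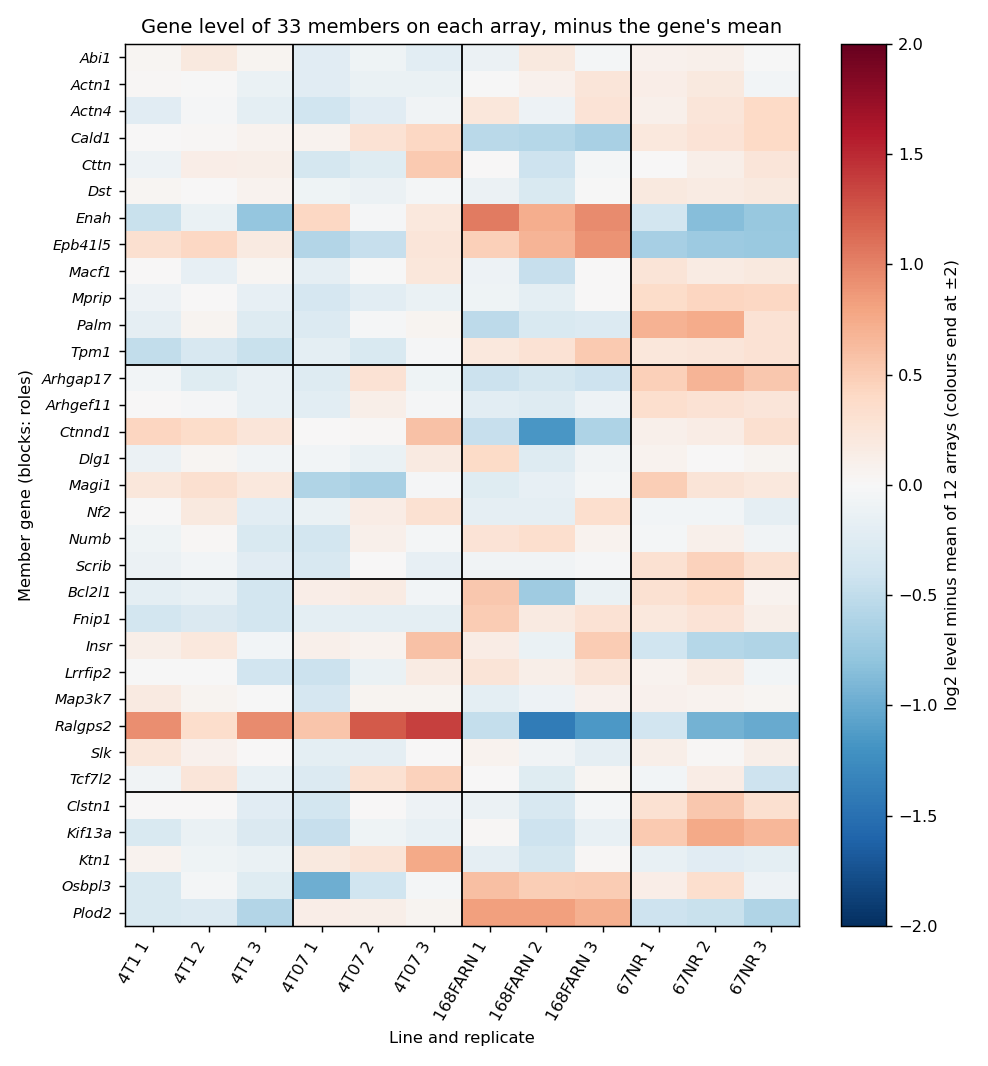
Gene level of the 33 measured genes (rows, in blocks by role) on each of the 12 arrays (columns), as log2 level minus the gene's mean over the arrays; red is above and blue below that mean. Ralgps2 is high in 4T1 and 4T07, Enah and Plod2 are high in 168FARN, Ctnnd1 is low in 168FARN, and Arhgap17, Palm and Kif13a are high in 67NR.

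Several members were lower in every spreading line than in 67NR; these 3 comparisons share the 67NR arrays. In 4T1 against 67NR, 3 genes rose and 8 fell, when 9.79% of all genes rose and 13.6% fell. In 4T07 against 67NR, 5 rose and 10 fell, when 11.5% of all rose and 13.3% fell. In 168FARN against 67NR, 4 rose and 9 fell, when 14.2% of all rose and 11.6% fell. Arhgap17 fell by 0.72 in 4T1, by 0.58 in 4T07 and by 0.96 in 168FARN. Kif13a fell by 0.89, 0.88 and 0.83 in the same lines, Palm, a lipid-anchored protein of the membrane cytoskeleton, by 0.70, 0.65 and 0.94, and Mprip by 0.49, 0.63 and 0.49, each with an adjusted p of at most 0.014. Clstn1 and Scrib fell in all 3 comparisons as well, by 0.41 to 0.55. Insr was the gene that rose in all 3, by 0.61, 0.77 and 0.69.

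Against 168FARN, 3 genes rose and 5 fell in 4T1 (12.3% and 20.1% of all genes), and 4 rose and 6 fell in 4T07 (11.8% and 17.5%). Cald1 (caldesmon), which restrains myosin on actin, was higher by 0.62 in 4T1 and 0.85 in 4T07, and Tpm1 (tropomyosin) was lower by -0.76 and -0.52. No member passed between 4T1 and 4T07 at the gene level, where 0.606% of all genes were higher and 1.92% lower in 4T1. In the mean of 4T1 and 4T07 against that of 168FARN and 67NR, 4 rose and 8 fell (13.9% and 21.8% of all genes). Among them Tpm1 fell by 0.59 (SE 0.10, adjusted p = 0.00032), Fnip1 by 0.53 (SE 0.09, adjusted p = 0.00053) and Kif13a by 0.47 (SE 0.11, adjusted p = 0.0043).

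Genes for proteins known to set these exons also differed between the lines. Of 26 splicing regulators of epithelial and mesenchymal exons, 23 were measured. In the mean of 4T1 and 4T07 against that of 168FARN and 67NR, 9 were higher and 2 lower (13.9% and 21.8% of all genes), with a median change of 0.02 against -0.07 over all genes. Esrp1 averaged 7.85 ± 0.22 in 4T1, 8.02 ± 1.38 in 4T07, 4.85 ± 0.05 in 168FARN and 4.53 ± 0.57 in 67NR (SD, n = 3), a difference of 3.24 between those means (adjusted p = 7.91e-06). Its 67NR mean lay in the background range of 4.71 or less and its 168FARN mean just above it, so this difference is against levels at background and is no exact fold. Esrp2 was higher by 1.22 (adjusted p = 7.22e-05). Rbm47, which also promotes epithelial exons, averaged 9.49 ± 0.09, 8.87 ± 0.36, 7.32 ± 0.11 and 8.55 ± 0.09 in the order 4T1, 4T07, 168FARN and 67NR. Mbnl2 was higher in 4T1 and 4T07 by 1.00 (adjusted p = 4.65e-06), and Rbfox2 was lower by -0.41 (adjusted p = 0.00536). Mbnl3 was lower in 168FARN than in 67NR by a log2 change of -1.70 (adjusted p = 0.000149). In this same grouping of the lines 13 of 14 epithelial markers and 7 of 8 neutrophil markers were higher, and the part of these markers in the results was not tested. No EMT-exon probeset was called there by its relative level, with changes of 0.75 in Map3k7 and -0.76 in Clstn1 for the probesets described above, while diffSplice called the Map3k7 probeset at 1.00.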

How the data were processed

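Total RNA of 12 primary tumour samples, 3 per line, was hybridised to Affymetrix mouse exon arrays. The authors deposited a log2 signal for each of 228090 probesets on every array; the log2 scale was read from the values, while their summarization, normalization and genome build are not given in the sources used here. Medians of the arrays ran from 7.21 to 7.57, no further normalization was applied, and precision is limited by the number of arrays. The platform annotation gave 207232 probesets 1 symbol, 3882 several and 16976 none. Of 16207 symbols, 14055 were current, 2111 were updated through RefSeq names (GRCm38.p6) and 41 kept. Exon positions were not used here, so probesets stand under their numbers and no sequence is shown.

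Tested probesets had a mean above the 25th percentile (5.59) in genes above the 50th percentile (7.48), with at least 4 such probesets. In the 29 tested genes 26 of 848 probesets fell under the first filter. Relative levels were fitted with limma 3.58.1 (lmFit, eBayes; R 4.3.3, version 1.17.8 of the data.table package), with a mean per line and no covariate. P-values were adjusted by Benjamini-Hochberg over all tested probesets, or over the 14345 genes with at least 4 probesets for gene levels, and every adjusted p is limma's. Calls need an adjusted p under 0.05 and a size of at least 1; for gene levels in a pair of lines, rose, fell, higher and lower need the adjusted p alone. The script was tested on simulated data. Same-numbered replicates were checked for pairing: their deviations correlated at -0.10 to 0.21, with 4 of 18 pairs above 0.1. Of the 12 arrays, 8 correlated best with an array of their own number. These values do not settle whether the numbers pair samples, and the main fit used no pairing.

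The genes, gene lists and tests were chosen with earlier results of these data known. Each called probeset is described, the 6 called at the gene level likewise, and every other gene by its most variable probeset; the probesets called by diffSplice alone, Mprip 5177395, Ctnnd1 5168521 and the single regulators were chosen after their values were seen. Alternatives tried were quantile normalization, other filters, the mean as gene level, adjusted p alone, diffSplice, a replicate block and leaving out arrays.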

Additional observations from a re-analysis of the deposited data

How the results depend on the processing

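The counts of called probesets are small, and a change of 1 probeset often moves them by over 1.5 times. Among the 4 lines the 3 calls became 6 with the mean of the probesets as gene level. They became 5 with the replicate block, where Dst was lost and Clstn1 and 2 more Enah probesets were gained. Without the filter on gene level, chosen after seeing the data, there were 8. With 168FARN array 1 alone all 3 were lost, and Ctnnd1 probeset 5168521, not among them, was called instead (range 1.67). In 4T1 against 168FARN the 6 calls became 11 with diffSplice and 1 with 168FARN array 1 alone. In 168FARN against 67NR the 1 call became 4 with diffSplice, 3 without the probeset filter, with the mean as gene level, with the replicate block or, chosen after seeing the data, without probesets of no spread, and 2 with quantile normalization, with adjusted p alone or without the gene filter. In 4T1 against 67NR the 0 calls became 4 with diffSplice, 2 with the mean as gene level or without the gene filter, and 1 with the 50th percentile filter, with the replicate block or without probesets of no spread. In 4T07 against 168FARN the 0 calls became 1 with the mean as gene level, with adjusted p alone or with diffSplice, and 4 without the gene filter; in 4T07 against 67NR they became 1 with diffSplice. For the lung-reaching lines the 0 calls became 7 with adjusted p alone, 1 with diffSplice and 3 without the gene filter. The 6 genes called at the gene level became 19 with adjusted p alone. In 4T1 against 4T07 every setting gave 0.

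Leaving out each array in turn gave 1 to 4 calls among the lines, 1 to 5 in 4T1 against 168FARN, 0 to 3 in 168FARN against 67NR, 0 to 2 in 4T1 against 67NR, 0 to 1 in 4T07 against 168FARN, in 4T07 against 67NR and for the lung-reaching lines, 0 in 4T1 against 4T07, and 5 to 7 genes at the gene level. The replicate block changed no count beyond those given, and 8 of 12 arrays correlated best with an array of their own number, a hint from the data and not from the design. No named change reversed. Values of named probesets under alternatives were sorted by the adjusted p alone, whatever their size. It stayed under 0.05 for 34 of the ranges and 88 of the pair changes, and did not for 24 and 56. All 96 of the gene-level changes kept an adjusted p under 0.05. The cause of these shifts was not tested. The diffSplice test gives no value for the F-test among the lines or the gene level, and filters on probesets do not apply to gene levels.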
